A study of Mus musculus with 4 samples.

Results

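C1q macrophages of the mouse ventral prostate that do not carry the Spp1 program are described here: how they are recognised, how they differ among themselves and how they compare between 2 te2 and 2 sham animals. They were chosen by measured counts. A cell was taken with at least 500 unique molecular identifiers (UMIs, each standing for 1 captured transcript), at most 20% mitochondrial counts, at least 2 UMIs of C1qa, C1qb and C1qc together that made up at least 0.15% of its UMIs, at most 2 UMIs of Spp1 and Gpnmb together, and less than 10% of its UMIs from the luminal secretory genes Sbp and Spink1. This gave 279 cells of the 8091 that met the depth and mitochondrial limits and of 11245 in all. There were 64 and 62 in sham replicates 1 and 2, and 75 and 78 in te2 replicates 1 and 2.

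All 4 libraries came from the ventral prostate of C57BL6j mice of genotype wt, harvested 2 weeks after pellet implantation, for a study of steroid imbalance. The groups carry the names sham and te2 and no further treatment detail, so te2 is used as a name, and the age of the mice is not given in the sources used here. Each library is 1 animal, whose paired lobes were pooled in a tube, broken up with a protease at low temperature and loaded on a droplet platform that counts transcript ends.

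Macrophages are tissue phagocytes that take up dying cells and debris, present antigen on MHC class II and release chemokines and growth factors. C1q, the recognition subunit of the classical complement pathway, is built from the products of C1qa, C1qb and C1qc, which in many tissues are made by resident macrophages. In several mouse organs resident macrophages are described as 2 broad kinds, one with Lyve1, Folr2 and the mannose receptor Mrc1, often beside vessels, and one with high MHC class II and the fractalkine receptor Cx3cr1.

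The libraries differed in depth and in free luminal RNA. The C1q macrophages had a median of 968.5 and 838 UMIs per cell in sham and 1634 and 1849.5 in te2, and their summed counts were 83797 and 63132 in sham and 156290 and 176478 in te2. Sbp and Spink1 made up 2.80% and 3.89% of these sums in sham and 0.258% and 1.22% in te2. The deepest single cell gave 5.62% to 8.77% of a library's sum. Any 2 libraries shared 1 to 5 cell barcodes, none of which belonged to a C1q macrophage. Intervals given below cover counting error only.

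C1q macrophages took a like share of the kept cells in both groups. They were 3.91% of kept cells in sham replicate 1 (exact 95% binomial interval 3.02% to 4.96%), 3.07% in sham replicate 2 (2.36% to 3.92%), 3.23% in te2 replicate 1 (2.55% to 4.03%) and 3.69% in te2 replicate 2 (2.93% to 4.59%). The te2 shares lay between the sham shares (exact permutation p = 1, two-sided; 2 libraries against 2 cannot go below 0.333). With every cell thinned to 500 UMIs before the rule was applied, the shares were 3.54% and 2.68% in sham and 3.49% and 3.60% in te2. Spp1 Gpnmb macrophages met the same limits but held at least 3 UMIs of Spp1 and Gpnmb. In sham they were 0 of 64 and 0 of 62 C1q macrophages of both kinds, with exact 95% intervals up to 5.60% and 5.78%. In te2 they were 43 of 118 and 10 of 88.

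Cells near the limits fell unevenly between the groups. At the C1q limit, 11 members held 2 UMIs and 15 held 3, while 9 cells with 1 UMI met every other limit and stayed outside. At the Spp1 limit, 4 members held 1 or 2 UMIs of Spp1 and Gpnmb, and 2 cells with 3 to 5 UMIs stayed outside. At the luminal limit, 48 members lay between 5% and 10%, with 16 and 28 in sham and 0 and 4 in te2. Another 18 cells with enough C1q stayed outside at 10% or more, with 9 and 8 in sham and 1 and 0 in te2. The largest number kept out, 28 cells, had at least 2 C1q UMIs that made up less than 0.15% of their UMIs, with 5 and 1 in sham and 14 and 8 in te2.

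Summed per library, the cells carried a macrophage identity in all 4 libraries. A subset described below had less Csf1r and 0 counts of Ms4a7. Levels are CPM values, a gene's count over the summed cells of a library, scaled to 1e6 UMIs. Since the cells were chosen by their counts, levels set against other cells are a description without a test. C1qa stood at 1707 and 2075 CPM in sham and 2834 and 3270 CPM in te2, against a mean of 3.30 CPM in the other kept cells, which are those in neither C1q class. Of the other genes that mark these cells, Ms4a7, a membrane protein of the MS4A family, stood at 918.9 and 1394 CPM in sham and 1158 and 1479 CPM in te2. Cd74, the invariant chain that guides MHC class II assembly, stood at 15100 and 15930 CPM in sham and 29050 and 29180 CPM in te2, and at a mean of 333.8 CPM in other kept cells. Ms4a7 overlapped between the groups, whereas both te2 values of Cd74 lay above both sham values. All 20 genes of a list of general macrophage genes were counted in every library and stood higher in these cells than in other kept cells. Csf1r, the receptor for the macrophage growth factor CSF1, stood at 1086 and 1457 CPM in sham and 927.8 and 1014 CPM in te2, against 5.79 CPM in other kept cells. The Spp1 Gpnmb macrophages of te2 had 303.8 and 122.9 CPM of Csf1r.

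**Figure D1:**
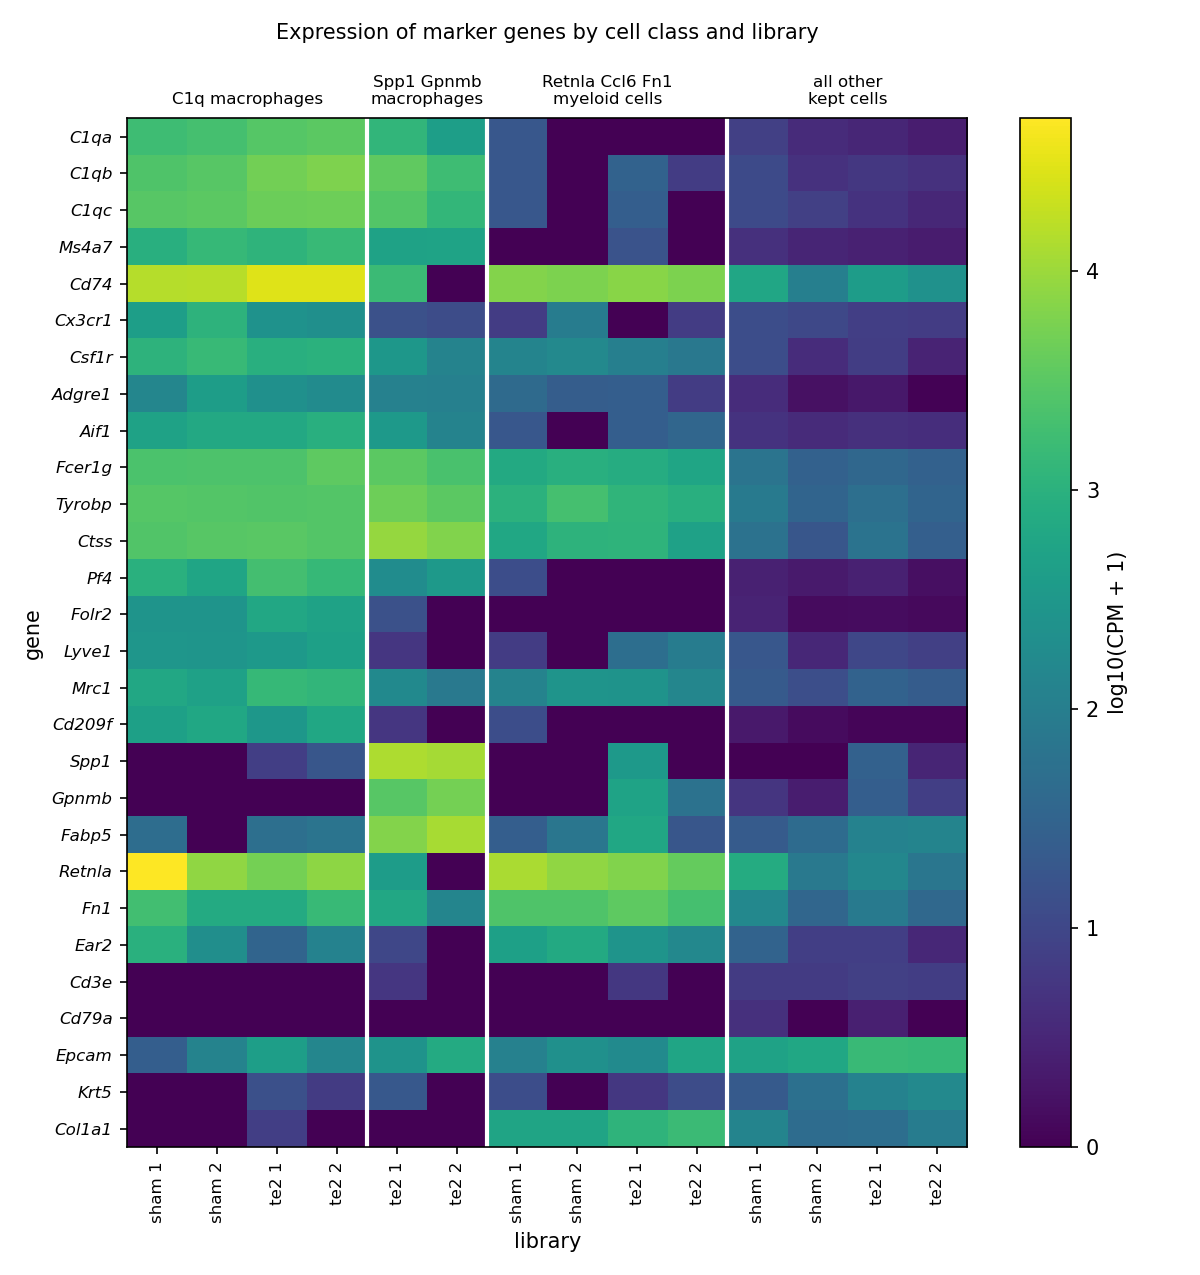
Level of 28 genes, as log10(CPM + 1), in C1q macrophages, Spp1 Gpnmb macrophages (te2 only, since sham held 0 such cells), Retnla Ccl6 Fn1 myeloid cells and all other kept cells, one column per library. Csf1r, Aif1, Pf4 and Folr2 are high in the C1q macrophages in all 4 libraries. Csf1r, Aif1 and Pf4 are also present, at lower levels, in the Spp1 class. Spp1, Gpnmb and Fabp5 are high in the Spp1 class, and Cd3e and Cd79a are at 0 in the C1q macrophages.

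The 15 genes with the largest ratio of the mean level in these cells to that in other kept cells, among those at 200 CPM or more, were Pf4, Slpi, Ms4a7, Prg4, Ccl8, Cd209f, Fcna, Folr2, Csf1r, Aif1, Ednrb, Clec10a, Ltc4s, Mgl2 and Adgre1. They include the chemokine genes Pf4 and Ccl8, the lectin genes Cd209f, Fcna, Clec10a and Mgl2, the folate receptor gene Folr2, the leukotriene C4 synthase gene Ltc4s and Adgre1, which encodes the macrophage antigen F4/80. Pf4 stood at 966.6 and 586.1 CPM in sham and 1952 and 1383 CPM in te2, against 1.26 CPM in other kept cells. Cd209f stood at 477.3 and 617.8 CPM in sham and 307.1 and 634.6 CPM in te2, against 0.458 CPM. The Spp1 Gpnmb macrophages of te2, which are not among those other cells, also held some of these genes. Ms4a7 stood there at 510.9 and 536.1 CPM, Pf4 at 193.3 and 346.2 CPM and Ccl8 at 188.7 and 234.5 CPM. Fcna, Prg4, Ednrb, Clec10a and Mgl2 were at 0 there. Slpi, which encodes a secreted protease inhibitor, and Prg4, which encodes the lubricating proteoglycan lubricin, came from few cells: 6 of the 279 held at least 3 UMIs of the pair, 3 of them in sham replicate 1, and both genes had 0 counts in sham replicate 2.

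Upstream DNA of 2 of the genes that define these cells is shown for reference; C1qa is named only. The lines give the 250 bases before the start of the gene on the coding strand, from RefSeq on build GRCm38.p6, with capitals for the core letters GAGGAA of motifs bound by PU.1, the myeloid transcription factor encoded by Spi1, on either strand. C1qb lies at chr4:136886201-136886450 (minus strand) and C1qc at chr4:136892915-136893164 (minus strand).

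C1qb: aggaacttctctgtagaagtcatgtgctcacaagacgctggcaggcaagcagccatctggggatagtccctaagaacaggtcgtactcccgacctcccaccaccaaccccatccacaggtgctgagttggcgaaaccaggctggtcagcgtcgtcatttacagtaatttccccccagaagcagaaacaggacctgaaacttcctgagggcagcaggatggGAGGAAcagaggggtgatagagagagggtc
C1qc: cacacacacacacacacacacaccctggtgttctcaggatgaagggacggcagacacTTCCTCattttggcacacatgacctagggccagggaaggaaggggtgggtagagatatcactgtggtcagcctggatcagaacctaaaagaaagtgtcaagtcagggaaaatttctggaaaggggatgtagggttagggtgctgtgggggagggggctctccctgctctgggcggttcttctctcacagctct

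Each window held 1 match, beginning 30 bases before the start in C1qb and 193 bases before it in C1qc. The letters occur in 23.3% of the 32851 windows of the same length, so a match is a description of the sequence and not a sign of binding. Spi1 itself stood at 202.9 and 253.4 CPM in sham and 300.7 and 266.3 CPM in te2.

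Markers of T and NK cells, vessels and stroma were low, and epithelial RNA was present in all libraries. Luminal genes other than Sbp and Spink1 summed to 966.6 and 1758 CPM in sham and 1721 and 1649 CPM in te2, against means of 9564 and 14450 CPM in the other kept cells of sham and te2. Proximal luminal genes summed to 23.9 and 649.4 CPM in sham and 1587 and 583.6 CPM in te2. Of 18 genes of T and NK cells, 14 had 0 counts in all C1q macrophages, among them Cd3e, Cd3g, Cd4 and Trac. The list summed to 25.6 to 119.3 CPM, against means of 89.15 and 108.2 CPM in the other kept cells of sham and te2. Genes of B and plasma cells summed to 226.7 and 475.2 CPM in sham and 332.7 and 351.3 CPM in te2. Other kept cells had means of 580.9 CPM of these in sham and 13.11 CPM in te2. In te2, Ighm gave 50 and 43 of their 52 and 62 counts. Of 12 endothelial genes, Cdh5, Emcn, Egfl7 and Mmrn1 were at 0. The list summed to 62.3 to 126.7 CPM, against means of 142.2 and 107.8 CPM in the other kept cells of sham and te2. Basal epithelial genes summed to 286.4 and 269.3 CPM in sham and 959.8 and 255 CPM in te2, where Krt15, a basal keratin, had 75 and 18 counts and 0 in both sham libraries. Fibroblast genes summed to 131.3 to 313.5 CPM, with Lum and Pdgfra at 0. The doublet caller scrublet marked 97 of the 8091 kept cells, 4 of them C1q macrophages, and 24 C1q macrophages held 2 or more UMIs of T, NK or basal genes. Markers of dendritic cells were mixed: Zbtb46, Clec9a and Ccr7 were at 0, while Mgl2 and Batf3 were present in every library.

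Among the myeloid cells of the gland, the C1q macrophages of te2 had higher levels of Cd74, H2-Aa, Mgl2 and Ccr2 than the Spp1 Gpnmb macrophages, and lower levels of Fabp5 and Ctsl. In te2, the 8 genes with the largest ratio towards the C1q macrophages were Mgl2, Ccr2, Clec10a, Fcna, C4b, Prg4, Ighm and Ednrb, all with 0 counts in the Spp1 class. Mgl2, a galactose-binding lectin, had 250 counts in te2 C1q macrophages and was at least 76.8-fold higher there, taking 3 counts over both libraries as the floor. Ccr2, the receptor that brings monocytes out of the blood, had 211 counts and was at least 64.9-fold higher. Cd74 stood at a mean of 803.2 CPM and H2-Aa at 306.1 CPM in the Spp1 class, against 29050 and 29180 CPM and 7243 and 7871 CPM in the C1q macrophages of the same libraries. In the other direction stood Npy, Fabp5, Syngr1, Atp6v0d2, Mmp12, Ctsl, Il7r and H1f2. Ctsl, the lysosomal protease cathepsin L, was at 409.5 and 408 CPM in the C1q macrophages and at a mean of 14000 CPM in the Spp1 class, and Fabp5, a fatty acid carrier, at 51.2 and 62.3 CPM and a mean of 9427 CPM. Apoe, by contrast, was high in both, at 18100 and 17330 CPM here and a mean of 25710 CPM in the Spp1 class. Only te2 cells could be set side by side, and whether the 2 classes differ in their response was not tested because sham held 0 Spp1 cells.

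Retnla Ccl6 Fn1 myeloid cells, which held at least 3 UMIs of those genes and fewer than 2 of C1q, numbered 93 and 18 in sham and 56 and 42 in te2. Their mean level of Cd74 was 6373 CPM and that of Csf1r 118.8 CPM. Plac8, a monocyte gene, had a mean of 157 CPM in them and 6.22 CPM in the C1q macrophages. Ccr2, S100a4 and Retnla, also of the monocyte list, had means that were similar or higher in the C1q macrophages. Ccr2 had a mean of 695.6 CPM in the C1q macrophages and 763.9 CPM in the Retnla Ccl6 Fn1 cells. In the same order, S100a4, a calcium-binding protein, had 344.7 and 320.2 CPM, and Retnla 17910 and 7819 CPM. The Retnla mean in the C1q macrophages was set largely by sham replicate 1, which also had by far the highest S100a4 level. Retnla helps to define the other class. Ly6c2, another monocyte gene, had 0 counts in the C1q macrophages and a mean of 1.45 CPM in the Retnla Ccl6 Fn1 cells.

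Within the C1q macrophages, Cx3cr1 and the genes of the Lyve1 Folr2 kind fell largely into different cells, whereas MHC class II genes were present in both kinds of cell. For this, each cell was thinned to 500 UMIs and asked for 2 or more UMIs of a resident set made of Lyve1, Folr2, Mrc1, Cd163, F13a1 and Pf4. The set and its limit were chosen after the values were seen. It was met by 16 of 64 and 9 of 62 cells in sham, or 25.0% (exact 95% interval 15.02% to 37.4%) and 14.5% (6.86% to 25.8%), and by 36 of 75 and 32 of 78 in te2, or 48.0% (36.3% to 59.9%) and 41.0% (30.01% to 52.75%). Both te2 shares lay above both sham shares (exact permutation p = 0.333, two-sided, the smallest that 2 libraries against 2 allow). Among cells with Sbp and Spink1 below 3% of their UMIs, a comparison added after seeing the data, the set was met by 8 of 23 and 6 of 16 cells in sham, or 34.8% and 37.5%, and by 36 of 75 and 31 of 74 in te2, or 48.0% and 41.9%, so that the groups lay closer together. Unthinned, the set was met by 27 of 64 and 12 of 62 cells in sham and 45 of 75 and 42 of 78 in te2. In other kept cells the thinned share was 0.256% to 0.953%. Near the limit, 9 and 4 sham cells and 6 and 9 te2 cells held exactly 1 UMI of the set, and 2 and 2 sham cells and 5 and 6 te2 cells exactly 2.

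A UMI of Cx3cr1 was found after thinning in 21.9% and 43.5% of the sham cells and in 14.7% and 17.9% of the te2 cells, against 0.445% to 0.614% of other kept cells (exact permutation p = 0.333, two-sided). Unthinned, the shares were 31.25% and 54.8% in sham and 25.3% and 32.1% in te2, which overlap. Of the cells with Cx3cr1, 0 of 14 and 0 of 27 in sham and 1 of 11 and 2 of 14 in te2 also met the resident set. The Cx3cr1 cells were shallow in sham, with medians of 718.5 and 735 UMIs, and 1396.5 and 1792.5 UMIs in te2, and in sham 1 of 14 and 3 of 27 of them had less than 3% of their UMIs from Sbp and Spink1.

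**Figure D2:**
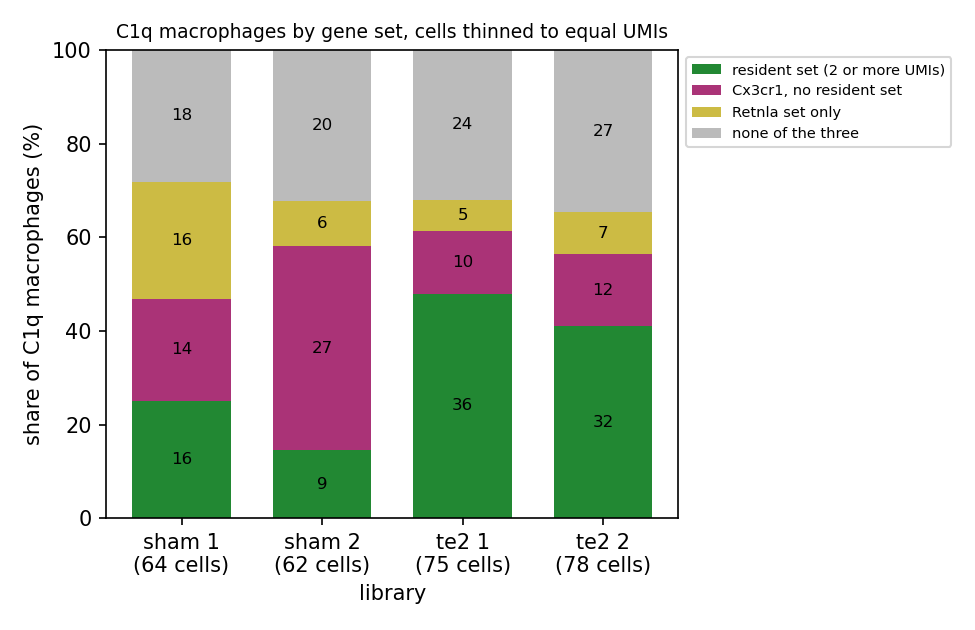
Share of the C1q macrophages of each library (64 and 62 sham cells, 75 and 78 te2 cells, each thinned to 500 UMIs) in each subset. The subsets are the resident set, Cx3cr1 without that set, Retnla, Ccl6 and Fn1 only (at least 3 UMIs together), and none of them. The numbers are cells; the resident set holds 16 and 9 sham cells and 36 and 32 te2 cells.

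The remaining cells split by Retnla, Ccl6 and Fn1, genes of alternatively activated and recruited macrophages. The limit was at least 3 UMIs after thinning, summed over the trio. It was met by 48.4% and 24.2% of sham cells and 37.3% and 34.6% of te2 cells, which overlap. In other kept cells, Retnla Ccl6 Fn1 myeloid cells included, the shares were 4.32% and 0.665% in sham and 1.54% and 0.692% in te2. Most resident-set cells met this summed limit: 15 of 16 and 8 of 9 in sham and 23 of 36 and 19 of 32 in te2. Few of them held Fn1 itself: a UMI was found in 1 of 16 and 0 of 9 in sham and 1 of 36 and 2 of 32 in te2. Cells with the trio alone, without the resident set or Cx3cr1, numbered 16 and 6 in sham and 5 and 7 in te2. Cells with none of these genes at the limits numbered 18 and 20 in sham and 24 and 27 in te2.

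Other genes followed these subsets, summed over the 4 libraries. Genes in the set are high in resident-set cells by choice. Outside the set, Ccl8, a chemokine of the CCL2 family, stood at 2465 CPM in resident-set cells, 0 in Cx3cr1 cells, 11.6 CPM in cells with the trio alone and 66.2 CPM in the rest. Cd209f, a C-type lectin, stood at 1304, 23.8, 57.8 and 44.1 CPM in the same order. Selenop, which carries selenium in plasma, stood at 5119, 762.3, 254.5 and 874.8 CPM. Each of these genes stood highest in resident-set cells.

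Ms4a7 showed the opposite pattern, at 438.6 CPM in resident-set cells, 2561 CPM in Cx3cr1 cells and 2323 CPM in cells with none of the sets, and at 0 counts in cells with the trio alone. Cd72, a lectin-like receptor that dampens signalling, was at 393.1 and 499.9 CPM in the Cx3cr1 cells and those with none of the sets, and at 0 counts in the other subsets. Epithelial genes also stood highest in these cells. Wfdc2 was at 1084 CPM in Cx3cr1 cells and at most 294.0 CPM in the other subsets. In cells with none of the sets, Smr2 was at 286.7 CPM and Krt15 at 441.1 CPM, against at most 23.8 and 161.6 CPM. The source of this epithelial RNA was not tested. Cells with the trio alone had 1018 CPM of Ear2, an eosinophil-type ribonuclease, and 2580 CPM of Apoe, where the other 3 subsets had 14871 to 18331 CPM of Apoe. Ccr2 stood at 1654 CPM in them, 756.1 CPM in resident-set cells, 154.8 CPM in Cx3cr1 cells and 294.0 CPM in the rest. Csf1r stood at 474.3 CPM with the trio alone and at 964.8 to 1293 CPM elsewhere. Adgre1 had 5 counts with the trio alone, all in te2 replicate 2. Cells with the trio alone gave 33072 of the 83797 UMIs of sham replicate 1 and 11358 of 63132 in sham replicate 2. In te2 they gave 15731 of 156290 and 26287 of 176478. MHC class II genes were present in every subset. Cd74 stood higher in Cx3cr1 cells than in resident-set cells in every library, whereas H2-Aa, H2-Ab1 and H2-Eb1 did not keep the same direction. H2-Aa stood at 6031 CPM in resident-set cells, 6492 CPM in Cx3cr1 cells, 6582 CPM in cells with the trio alone and 8660 CPM in the rest. In sham, Cd74 stood at 11887 and 14644 CPM in resident-set cells, 16979 and 16130 CPM in Cx3cr1 cells, and 18413 and 13291 CPM in cells with none of the sets. In te2 the same subsets had 16543 and 18808 CPM, 25664 and 54542 CPM, and 54523 and 34755 CPM.

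**Figure D3:**
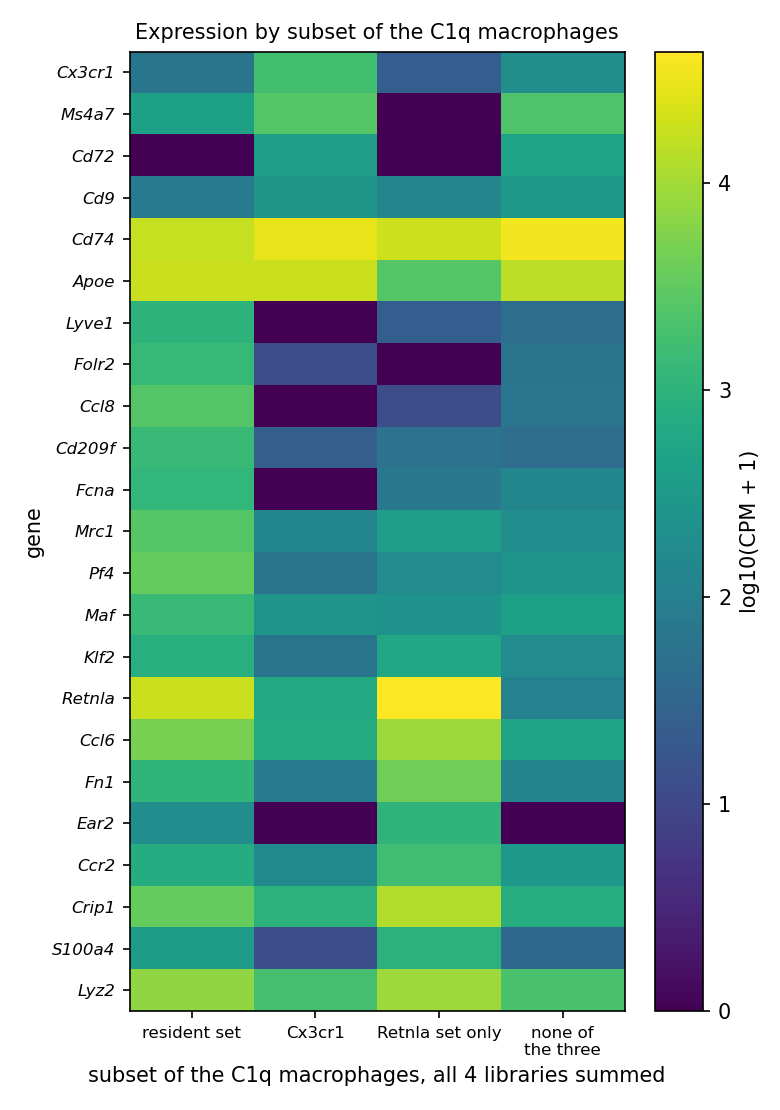
Level of selected genes, as log10(CPM + 1), in the subsets of the C1q macrophages, with the cells of all 4 libraries summed. Ccl8, Lyve1 and Folr2 are high in resident-set cells, Ms4a7 and Cd72 in Cx3cr1 cells and in cells with none of the sets, and Ear2 and Fn1 in cells with Retnla, Ccl6 and Fn1 only.

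Against sham, 2 of the 2247 genes tested rose in the C1q macrophages of te2, which is 0.089% of them, and 0 fell, at an FDR of 0.05 by edgeR. The genes used to choose the cells are left out of these counts but stayed in the adjustment. The call of Klf2, though not that of Ccl8, depends on their being in it. Ccl8 had 12 and 9 counts in sham, or 143.2 and 142.6 CPM, and 249 and 167 counts in te2, or 1593 and 946.3 CPM. Both te2 values lay far above the sham values, which were nearly alike. It rose by a log2 change of 3.05 ± 0.36 (standard error; adjusted p = 0.00576, edgeR quasi-likelihood test on summed counts, 2 libraries a group). Other kept cells had 0.401 to 1.56 CPM of Ccl8.

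The other was Klf2, a transcription factor that restrains inflammatory gene expression in macrophages and is also induced when tissue is dissociated. Klf2 had 13 and 8 counts in sham, or 155.1 and 126.7 CPM, and 91 and 113 in te2, or 582.3 and 640.3 CPM. The groups did not overlap, and it rose by a log2 change of 2.005 ± 0.32 (adjusted p = 0.0493, same test). The adjustment ran over all 2265 genes fitted, those used to choose the cells included. By p, Ccl8 ranked 2 and Klf2 ranked 3, behind a gene used to choose the cells. The call of Klf2 depends on that gene being counted in the adjustment. At an unadjusted p under 0.05 there were 144 higher genes (6.41%) and 195 lower (8.68%), and DESeq2 called 11 of the 188 genes to which it gave an adjusted p (5.85%), 8 higher (4.26%) and 3 lower (1.6%), Ccl8 among them. Other edgeR settings called genes in both directions, such as 30 higher and 26 lower without doublet-like cells.

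With Sbp and Spink1 held below 3% of a cell's UMIs, which left 23 and 16 sham cells, the log2 changes were 3.28 for Ccl8 (adjusted p = 0.0772) and 1.73 for Klf2 (adjusted p = 0.132). Klf2 also missed the threshold with summed counts thinned to equal totals (adjusted p = 0.0636), with Spp1 and Gpnmb at 0 UMIs (0.0646) and with at least 1000 UMIs per cell (0.135).

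The upstream sequence of these 2 genes follows, in the same form as for C1qb and C1qc. Ccl8 lies at chr11:82114935-82115184 (plus strand) and Klf2 at chr8:72318812-72319061 (plus strand), both on GRCm38.p6.

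Ccl8: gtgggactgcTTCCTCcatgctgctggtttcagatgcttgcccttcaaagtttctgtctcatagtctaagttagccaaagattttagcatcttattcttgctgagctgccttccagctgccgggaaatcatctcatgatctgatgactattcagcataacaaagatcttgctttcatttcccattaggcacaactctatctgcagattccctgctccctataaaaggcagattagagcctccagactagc
Klf2: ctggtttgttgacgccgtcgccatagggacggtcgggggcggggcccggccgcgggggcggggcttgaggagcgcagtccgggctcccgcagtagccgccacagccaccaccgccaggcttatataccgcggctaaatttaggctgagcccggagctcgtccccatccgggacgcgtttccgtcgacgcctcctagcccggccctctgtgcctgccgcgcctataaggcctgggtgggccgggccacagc

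In the Ccl8 window the PU.1 core letters occurred once, on the reverse strand, beginning 240 bases before the start, and in the Klf2 window they did not occur.

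The resident set held most of the Ccl8 counts. It took a larger share of the te2 cells, by less where cells with 3% or more luminal RNA were left out, and the Ccl8 level within the set was also higher in te2. Within resident-set cells Ccl8 stood at 493 and 625 CPM in sham, from 11 and 7 counts, and at 3402 and 2404 CPM in te2, from 249 and 160 counts. After thinning, 2 of 16 and 1 of 9 sham resident-set cells and 15 of 36 and 9 of 32 te2 ones held a Ccl8 UMI. Over all C1q macrophages 2 of 64 and 3 of 62 cells in sham and 15 of 75 and 10 of 78 in te2 held one, and in other kept cells the share was 0.0512% to 0.363%. Klf2 within resident-set cells stood at 0 and 536 CPM in sham, from 0 and 6 counts, and at 1093 and 871 CPM in te2. Since the subsets were chosen from the same cells, these values carry no test, and how far the mix of cells moves the summed level was not tested.

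**Figure D4:**
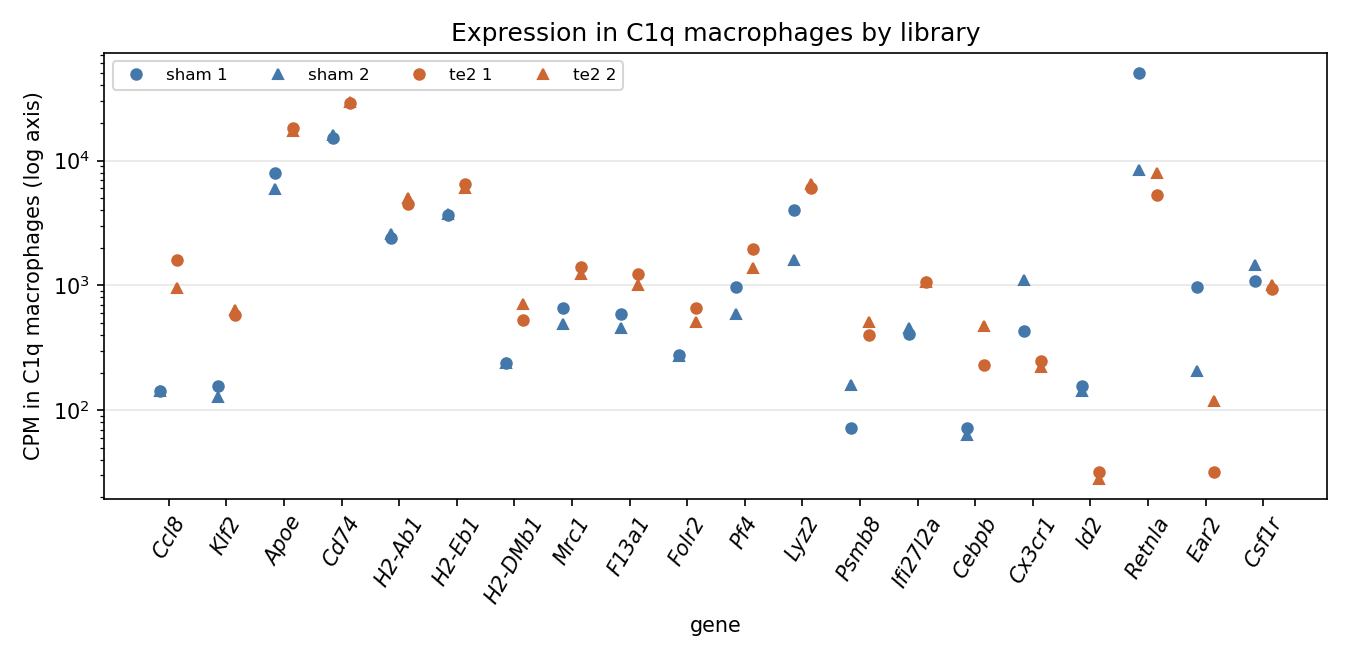
Level in C1q macrophages of 20 genes in each library, in CPM on a log axis, with sham in blue and te2 in orange, and replicate 1 as circles and replicate 2 as triangles. Ccl8 and Klf2 passed the test, Klf2 only with the genes used to choose the cells counted in the adjustment. The other genes shown did not pass.

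Other genes are described by list, as the number tested, the number with both te2 libraries above or below both sham libraries, and the median log2 change. Over all 2247 genes, 626 (27.9%) were higher without overlap and 474 (21.1%) lower, with a median log2 change of -0.02, and these are the shares to read each list against. Apart from Ccl8 and Klf2, the genes named below did not pass the test.

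Most MHC class II genes lay above sham in both te2 libraries. Among the lists with at least 5 tested genes it was the largest: of 10 tested, 8 were higher without overlap and 0 lower, with a median log2 change of 0.68 that stayed between 0.57 and 0.75 when any one library was left out. For Cd74 the log2 change was 0.82 ± 0.17 (adjusted p = 0.064). H2-Ab1, which encodes a class II beta chain, stood at 2399 and 2582 CPM in sham and 4485 and 4964 CPM in te2, a log2 change of 0.84 ± 0.20 (adjusted p = 0.0788). H2-DMb1, part of the complex that loads peptides, stood at 238.7 and 237.6 CPM in sham and 531.1 and 702.6 CPM in te2. H2-Aa, which encodes a class II alpha chain, stood at 5585 and 5512 CPM in sham and 7243 and 7871 CPM in te2. H2-DMa and the protease gene Ctss had overlapping values. By subset, Cd74 differed most in cells with none of the sets and less in resident-set cells, with the values given above. In cells with the trio alone Cd74 overlapped, at 14846 and 20778 CPM in sham and 25618 and 19287 CPM in te2. Within resident-set cells H2-Aa overlapped, at 5338 and 9019 CPM in sham and 5096 and 6790 CPM in te2, and so did H2-Eb1, another beta chain gene, at 3678 and 4911 CPM in sham and 4071 and 4777 CPM in te2.

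Of 14 genes of the Lyve1 Folr2 kind of resident macrophage, 8 were higher without overlap and 0 lower, at a median log2 change of 0.58. Leaving out 1 library gave medians from 0.54 to 1.01, the latter without te2 replicate 2. The list shares Lyve1, Folr2, Mrc1, Cd163, F13a1 and Pf4 with the resident set above. Mrc1, the mannose receptor, stood at 656.3 and 491 CPM in sham and 1414 and 1241 CPM in te2, a log2 change of 1.11 ± 0.25 (adjusted p = 0.0716). Folr2, a folate receptor, stood at 274.5 and 269.3 CPM in sham and 659 and 504.3 CPM in te2. Gas6, a bridging ligand for the uptake of dying cells, stood at 167.1 and 126.7 CPM in sham and 403.1 and 283.3 CPM in te2, and Igf1, a growth factor, at 47.7 and 79.2 CPM in sham and 198.3 and 147.3 CPM in te2. Lyve1 stood at 298.3 and 285.1 CPM in sham and 339.1 and 464.6 CPM in te2, a log2 change of 0.37 ± 0.30. Ccl24, an eosinophil chemokine, overlapped, at 871.2 and 158.4 CPM in sham and 128 and 221 CPM in te2.

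The Cx3cr1 kind was mixed, with 3 of 10 genes higher and 3 lower without overlap. Cx3cr1 stood at 429.6 and 1109 CPM in sham and 249.5 and 221 CPM in te2, a log2 change of -1.75 ± 0.39 (adjusted p = 0.0716). Both te2 values lay below both sham values, and the sham values lay far from each other. With Sbp and Spink1 below 3% of a cell's UMIs the log2 change was 0.46, and with at least 1000 UMIs per cell it was -0.47. The sign of the Cx3cr1 change therefore depends on the limit on luminal RNA, and it was not called under either.

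Apoe, the lipid carrier apolipoprotein E, came nearest to the threshold among the genes of high level. It stood at 7984 and 5956 CPM in sham and 18100 and 17330 CPM in te2, a log2 change of 1.25 ± 0.21 (adjusted p = 0.0514), with both te2 values above both sham values. In other kept cells Apoe was at a mean of 206.1 CPM in sham and 828.7 CPM in te2. Within resident-set cells it was at 8164 and 9287 CPM in sham and 23005 and 17681 CPM in te2. In cells with none of the sets it was at 15900 and 6324 CPM in sham and 16183 and 16100 CPM in te2, where sham replicate 1 lay next to te2. Of 16 genes of the lipid-handling program other than Spp1 and Gpnmb, 7 were higher and 1 lower without overlap. Trem2, a lipid-sensing receptor, had 2 and 1 counts in sham and 19 and 25 in te2. Lpl, a lipase, stood at 548.9 and 396 CPM in sham and 262.3 and 436.3 CPM in te2, and Cd36, a scavenger receptor, at 262.5 and 205.9 CPM in sham and 192 and 170 CPM in te2. Cd36 was the gene lower without overlap, and Lpl overlapped.

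Retnla and other genes of recruited macrophages stood highest in 1 sham animal. Retnla, a secreted resistin-like protein, stood at 50000 and 8395 CPM in sham and 5304 and 7939 CPM in te2, a log2 change of -2.25 ± 0.61 (adjusted p = 0.115). Sham replicate 1 stood far above the other 3 libraries. Ear2 stood at 978.6 and 205.9 CPM in sham and 32 and 119 CPM in te2, and Fn1, fibronectin, overlapped at 1850 and 760.3 CPM in sham and 742.2 and 1468 CPM in te2. Of 6 monocyte and recruited macrophage genes tested, 0 were higher and 2 lower without overlap, with a median log2 change of -0.82. The sign rests on sham replicate 1, without which the median was 0.30, and the other 3 libraries left out in turn gave -1.365 to -0.44. With the stricter C1q limit it was -0.255. In the resident-set cells, 16 of 16 and 8 of 9 in sham and 15 of 36 and 16 of 32 in te2 held a Retnla UMI after thinning. In other kept cells that share was 8.20% in sham replicate 1 and 0.921% to 1.41% in the other libraries. The part of free RNA in the Retnla counts was not tested.

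**Figure D5:**
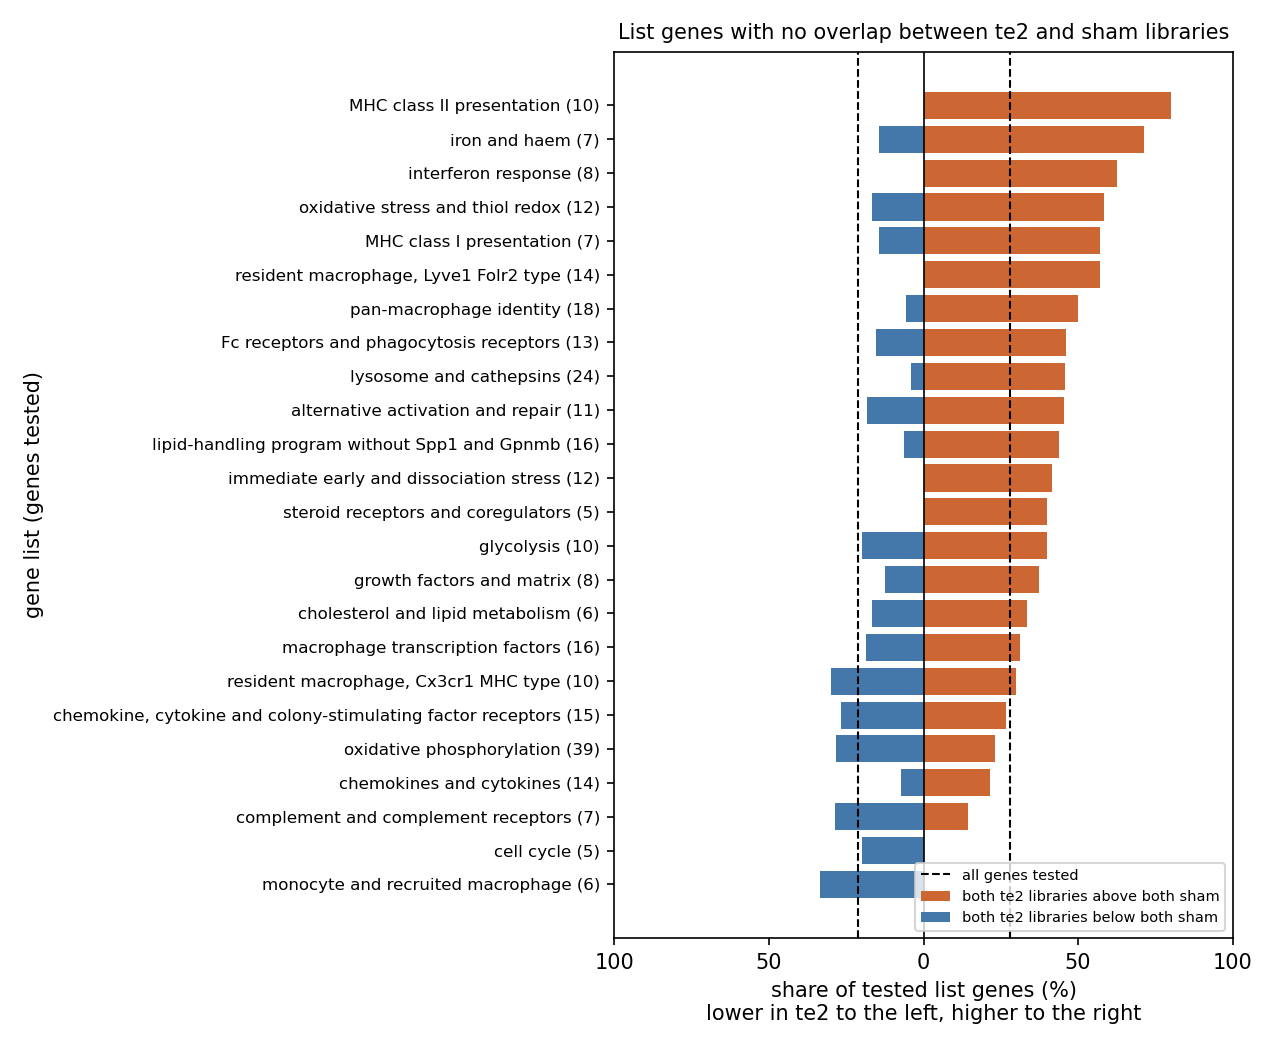
Share of the tested genes of each list (lists with at least 5 tested genes, number in brackets) with both te2 libraries above both sham libraries, to the right, or below them, to the left. Dashed lines give the shares over all 2247 genes, 27.9% higher and 21.1% lower; MHC class II genes lie farthest to the right, with 8 of 10.

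Genes of MHC class I presentation and of the interferon response were mostly above sham where the groups did not overlap. Of 7 class I genes, 4 were higher and 1 lower without overlap, and of 8 interferon response genes, 5 were higher and 0 lower, with a median log2 change of 0.52. Without sham replicate 2 the interferon median was 1.03, and without te2 replicate 2 it was 0.86 over the 5 genes then tested. Psmb8, a subunit of the immunoproteasome, had 6 and 10 counts in sham and 63 and 89 in te2, a log2 change of 1.95 ± 0.39 (adjusted p = 0.064). B2m, the light chain of class I, was the gene below sham, at 1659 and 1679 CPM in sham and 1228 and 1111 CPM in te2. Ifi27l2a, an interferon-induced gene, stood at 405.7 and 459.4 CPM in sham and 1056 and 1054 CPM in te2. In other kept cells the means of Ifi27l2a were 30.4 CPM in sham and 29.5 CPM in te2, whereas those of H2-K1 were 377.8 and 1065 CPM.

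Lysosomal, phagocytic and iron-handling genes were also more often above sham than below. Of 24 lysosomal genes, 11 were higher and 1 lower, with a median log2 change of 0.11 (0.17 without te2 replicate 2), and of 13 Fc and phagocytosis receptor genes, 6 were higher and 2 lower. Ctsb, the protease cathepsin B, stood at 1026 and 934.5 CPM in sham and 2118 and 1626 CPM in te2. Psap, the precursor of the saposins, was the lysosomal gene below sham, at 2267 and 2107 CPM in sham and 1651 and 1723 CPM in te2. Of 7 iron genes, 5 were higher and 1 lower. Fth1 and Ftl1 encode the chains of ferritin: Fth1 stood at 7554 and 7841 CPM in sham and 11920 and 14130 CPM in te2, and Ftl1 at 4499 and 3564 CPM in sham and 7096 and 8811 CPM in te2. Lyz2, the antibacterial enzyme lysozyme of macrophages, stood at 3998 and 1600 CPM in sham and 6021 and 6516 CPM in te2.

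Transcription factors other than Klf2 gave 4 more genes higher and 3 lower without overlap among 16 tested. Cebpb, a factor of macrophage activation, had 6 and 4 counts in sham and 36 and 84 in te2. Id2, an inhibitor of helix-loop-helix factors, had 13 and 9 counts in sham and 5 and 5 in te2, a log2 change of -2.36 ± 0.49 (adjusted p = 0.064). Irf8, a factor of monocyte and dendritic cell development, stood at 358 and 459.4 CPM in sham and 236.7 and 260.7 CPM in te2. Mef2c, a MADS-box factor, overlapped, at 525.1 and 506.9 CPM in sham and 627 and 413.6 CPM in te2. Of 12 genes of the early stress response to dissociation, 5 were higher without overlap, Klf2 included, and 0 lower, and Jun and Junb overlapped. Jun stood at 71.6 and 110.9 CPM in sham and 38.4 and 141.7 CPM in te2.

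Few chemokine genes other than Ccl8 separated the groups. Of 14 chemokine and cytokine genes, 3 were higher (Ccl8, Pf4 and Igf1) and 1 lower without overlap (Pdgfb). Ccl6 and Ccl9 overlapped, and Ccl12 stood at 119.3 and 190.1 CPM in sham and 89.6 and 164.3 CPM in te2. Of 15 receptor genes, 4 were higher and 4 lower. Ifngr1, the ligand-binding chain of the interferon gamma receptor, stood at 190.9 and 221.8 CPM in sham and 409.5 and 396.7 CPM in te2, and Tgfbr1, a receptor for TGF-beta, at 334.1 and 538.6 CPM in sham and 192 and 289 CPM in te2.

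Genes of energy metabolism were near the background shares of all genes. Of 39 nuclear genes of oxidative phosphorylation, 9 were higher and 11 lower without overlap, with a median log2 change of -0.21. That median was -0.01 without sham replicate 1 and -0.07 to -0.155 without each other library. Of 10 glycolysis genes 4 were higher and 2 lower. Gapdh, a glycolytic enzyme, stood at 453.5 and 522.7 CPM in sham and 735.8 and 821.6 CPM in te2. Of 5 cell cycle genes tested, 0 were higher and 1 lower. Mki67, a gene of dividing cells, stood at 11.9 and 31.7 CPM in sham and 12.8 and 5.67 CPM in te2.

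Estrogen receptor genes were barely detected in these cells. Esr1, the estrogen receptor alpha, stood at 11.9 and 0 CPM in sham and 25.6 and 5.67 CPM in te2, and Esr2 had 0 counts in every library. Fkbp5, a chaperone induced by androgens and glucocorticoids, had 3 and 2 counts in sham and 28 and 25 in te2, a log2 change of 2.11 ± 0.54 (adjusted p = 0.0904). Other kept cells, largely epithelium, held a mean of 274.8 CPM of Fkbp5 in sham and 639.6 CPM in te2, and the part of free RNA in the Fkbp5 counts of the macrophages was not tested.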

How the data were processed

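Single-cell RNA of 4 ventral prostates was measured with UMIs. The deposited tables are whole-number UMI counts, not normalized. The submitters' processing notes name Seurat 5.0.1, R 4.3.2, bustools 0.39.4 and kallisto 0.46.1 and the build GRCm39, without saying which step each served. Deposited totals were 3999690 and 5513275 counts in sham and 12259610 and 13134017 in te2, and the 4 tables list 14957, 15382, 17022 and 17094 genes. Genes missing from a library's table were entered as 0.

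Cells were chosen as stated in the report. The cells, gene lists and named genes were chosen with earlier results of these data known. Counts were summed per library and tested with edgeR 4.0.16 (quasi-likelihood, TMM, default low-count filter, two-sided, Benjamini-Hochberg over 2265 genes, FDR 0.05). Of these genes, 18 were used to choose the cells. They stayed in the adjustment and are left out of every count, which leaves 2247. CPM values are scaled by totals alone, log2 changes by TMM as well. Standard errors are the absolute log2 change over the square root of F. The rule for named genes took those past FDR 0.05 without overlap, higher in these cells than in others, which gave Ccl8 and Klf2; genes named from lists did not have to pass. Doublets were marked with scrublet (scanpy 1.11.5) and kept. The fit was tested on simulated data. Alternatives were DESeq2 1.42.0, no TMM, no filter, a replicate block, each library left out, equal totals, and other limits on the cells. How reads shared by near-identical genes were counted is not given, so such genes are uncertain. With 1 animal per library and 2 per group, edgeR's p-values rest largely on a spread pooled over genes.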

Additional observations from a re-analysis of the deposited data

How the results depend on the processing

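The 2 calls in te2 against sham became 11 with DESeq2 (8 higher, 3 lower), 82 without a filter on low counts (61 and 21), 22 with the Spp1 and Gpnmb limit as a share of UMIs (12 and 10), 12 with a stricter C1q limit (6 and 6), 56 without doublet-like cells (30 and 26), 1 with Spp1 and Gpnmb at 0 UMIs, 1 with at least 1000 UMIs per cell and 0 with Sbp and Spink1 below 3% of UMIs. They stayed at 2 without TMM factors and with equal totals. Leaving out a library gave 29 to 94 calls: 94 (52 higher, 42 lower) and 89 (51 and 38) without the first or second sham library, and 29 (19 and 10) and 33 (21 and 12) without the first or second te2 library. In such fits the lone library is assumed to vary like the other group. The replicate block gave 16 calls (9 and 7). The difference between replicates in sham and that in te2 had a correlation of -0.0467 over 2265 genes. Counting noise in genes of few counts makes such a value small, so it cannot tell whether the numbers pair the animals. The next settings were chosen after seeing the data. Leaving out cells with Retnla, Ccl6 and Fn1 at 0.5% or more of UMIs gave 144 calls, with log2 changes of 5.68 for Mrc1 and 7.88 for Klf2. After thinning, 15 of 16 and 8 of 9 sham resident-set cells held at least 3 UMIs of the trio. In te2 it was 23 of 36 and 19 of 32, so this setting bears more on sham resident-set cells. Leaving out cells with Slpi and Prg4, or those above 8000 UMIs, gave 32 each. The causes of the shifts were not tested.

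Ccl8 kept its direction under all 18 alternatives (log2 change 2.65 to 4.05) and missed the threshold with Sbp and Spink1 below 3% (3.28). Klf2 missed it in 4 of 17: equal totals (2.07), Spp1 and Gpnmb at 0 UMIs (2.01), Sbp and Spink1 below 3% (1.73) and 1000 UMIs per cell (1.79); DESeq2 gave it no adjusted p. Cx3cr1 reversed to 0.46 with Sbp and Spink1 below 3%.

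Passing the threshold where the reported fit did not, Apoe did so with DESeq2 (1.28), no filter (1.45), the block (1.27), the Spp1 share limit (1.26), the stricter C1q limit (1.16) and no doublet-like cells (1.605), and without each library in turn (1.08 to 1.55). Cd74 did so with DESeq2 (0.84), no filter (1.02), the stricter C1q limit (1.04) and no doublet-like cells (1.01), and without each library (0.85 to 0.88). Cx3cr1 did so with no filter (-1.56) and no doublet-like cells (-1.60), and ranged from -2.25 to -0.94 without a library, missing the threshold only without the second sham library (-0.94). Mrc1 did so with DESeq2 (1.13), no filter (1.30) and no doublet-like cells (1.22), and ranged from 0.95 to 1.41 without a library. Some of these genes also passed in the settings chosen after seeing the data. Without Slpi and Prg4 cells, Apoe (1.385), Cx3cr1 (-1.72) and Mrc1 (1.13) passed. Without cells above 8000 UMIs, Apoe (1.47), Cd74 (1.005) and Mrc1 (1.27) passed. Without Retnla, Ccl6 and Fn1 cells, Cx3cr1 (-2.06) and Mrc1 (5.68) passed.

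The te2 to sham ratio of the mean share of C1q macrophages was 0.991. It was 1.27 with the stricter C1q limit and 1.35 with at least 1000 UMIs per cell, and 0.886 to 1.13 without each library. Sham sums of 63132 and 83797 UMIs limit what can be seen of genes at a few counts. The term for a difference in response between C1q and Spp1 macrophages, and its alternatives, could not be fitted because sham held 0 Spp1 cells.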

Other observations

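Other genes near the threshold lay outside the lists and were chosen after their values were seen. Ms4a6c, of the same family as Ms4a7, stood at 47.7 and 126.7 CPM in sham and 454.3 and 476 CPM in te2, a log2 change of 2.39 ± 0.41 (edgeR adjusted p = 0.0514), against means of 6.52 and 6.46 CPM in other kept cells. Spn, which encodes the leukocyte surface protein CD43, stood at 107.4 and 190.1 CPM in sham and 12.8 and 11.3 CPM in te2, a log2 change of -3.56 ± 0.63 (adjusted p = 0.0514). Bsg, which encodes basigin, stood at 107.4 and 63.4 CPM in sham and 415.9 and 413.6 CPM in te2, and its mean in other kept cells went the same way, from 335.5 to 1202 CPM.

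Grip2 had 33290 and 29350 CPM in the sham C1q macrophages and 18300 and 14830 CPM in te2, and means of 17550 and 11760 CPM in the other kept cells of sham and te2. The haemoglobin genes summed to 548.9 and 301 CPM in sham and 108.8 and 17 CPM in te2, with means of 1060 CPM in the other kept cells of sham and 70.9 CPM in those of te2. Their part in any result above was not tested.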
